A study of Homo sapiens with 6 samples.

Results

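In K562 cells, 686 protein-coding genes had peaks of initiating transcription near widely separated annotated starts of their own. The peak farthest upstream was found again in other libraries more often than the one farthest downstream. At 363 upstream and 137 downstream peaks a start of another gene also lay within 500 bp. Activity there cannot be assigned to either gene alone. These genes were chosen from peaks of initiating transcription in the qPRO-seq libraries made from 1000000 cells. A gene was taken when at least 2 such peaks each lay within 500 bp of one of its own annotated transcript starts (GENCODE release 29, GRCh38) and the peak centres were at least 5 kb apart. The 686 genes are 6.34% of the 10821 protein-coding genes with any peak at a start (start peaks, below) on chromosomes 1 to 22 and X, out of 19864 annotated there. Of the 7441 genes with a start peak and annotated starts at least 5 kb apart, which nearly every chosen gene has, 685 (9.21%) were taken. The qPRO-seq 1M list chose the genes, so its own values are given only as a description, and the comparisons use the other 2 lists.

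All libraries came from untreated K562, an established human leukaemia line, and no gene was altered. The 3 groups were the earlier PRO-seq protocol with 1000000 permeabilized cells (PRO-seq 1M), the shorter qPRO-seq protocol with 1000000 cells (qPRO-seq 1M), and qPRO-seq with 250000 cells (qPRO-seq 250k). Each group had 2 replicates, separated by at least 3 passages; libraries from 1000000 cells had 11 cycles of PCR and those from 250000 had 14. Each group has 1 peak list covering both replicates, with 24707 peaks in PRO-seq 1M, 38177 in qPRO-seq 1M and 15562 in qPRO-seq 250k on the chromosomes used. There is therefore no replicate spread, all intervals below are 95% intervals that cover counting error over genes or peaks only, and the depth behind a peak is unknown. The number of cells, the PCR cycles and the length of the list cannot be told apart in the qPRO-seq 250k list. The labels call the line lymphoblastoid. Of 10 erythroid marker genes 9 to 10 had a start peak in each list, of 10 B lymphoid markers 1 to 2, and of 8 T lymphoid markers 0.

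PRO-seq lets engaged RNA polymerase add biotin-labelled nucleotides in permeabilized cells and sequences the nascent RNA, and the dREG program finds places where the signal on both strands has the form left by initiating polymerase. Many genes have alternative promoters, which give transcripts with different first exons, different untranslated leaders or proteins that lack or gain an amino-terminal part. In blood cells, alternative promoters are well known in genes for transcription factors such as RUNX1, GATA2 and GFI1B and for the membrane skeleton protein 4.1R, which EPB41 encodes.

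The promoter sequences of 6 of the genes known for alternative promoters or for roles in blood are shown because they span the range found: both ends kept in another list, and only the upstream or the downstream end kept. They are RefSeq windows on GRCh38.p14, from 250 bases before to 50 bases after a RefSeq transcript start that lay within 500 bp of the peak, written 5′ to 3′ on the gene's own strand. Capitals mark every match on either strand to any of 3 motifs. The GC box, bound by SP1 family factors, is GGGCGG and reads CCGCCC from the other strand. A motif of GATA factors is AGATAA and reads TTATCT from the other strand. The CCAAT box, bound by NF-Y, reads ATTGG from the other strand. Overlapping matches run together. The windows are EPB41 upstream chr1:28886850-28887149 and downstream chr1:28914319-28914618, both on the plus strand, GATA2 upstream chr3:128493152-128493451 and downstream chr3:128488481-128488780 on the minus strand, GFI1B downstream chr9:132978444-132978743 on the plus strand, LDB1 downstream chr10:102114953-102115252 on the minus strand, MITF upstream chr3:69739214-69739513 on the plus strand and MPP1 upstream chrX:154805436-154805735 on the minus strand.
EPB41 upstream: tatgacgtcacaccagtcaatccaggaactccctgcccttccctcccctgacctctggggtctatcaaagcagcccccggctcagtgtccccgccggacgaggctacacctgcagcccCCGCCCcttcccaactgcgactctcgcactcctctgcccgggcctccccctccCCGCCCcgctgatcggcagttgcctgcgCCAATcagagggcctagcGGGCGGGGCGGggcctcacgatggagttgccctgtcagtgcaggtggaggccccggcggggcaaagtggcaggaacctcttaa
EPB41 downstream: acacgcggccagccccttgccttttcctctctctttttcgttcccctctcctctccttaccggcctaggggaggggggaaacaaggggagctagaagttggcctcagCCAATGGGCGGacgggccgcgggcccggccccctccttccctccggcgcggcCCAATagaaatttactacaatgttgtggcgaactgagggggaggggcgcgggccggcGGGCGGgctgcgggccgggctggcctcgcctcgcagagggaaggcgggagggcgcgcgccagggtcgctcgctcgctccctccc
GATA2 upstream: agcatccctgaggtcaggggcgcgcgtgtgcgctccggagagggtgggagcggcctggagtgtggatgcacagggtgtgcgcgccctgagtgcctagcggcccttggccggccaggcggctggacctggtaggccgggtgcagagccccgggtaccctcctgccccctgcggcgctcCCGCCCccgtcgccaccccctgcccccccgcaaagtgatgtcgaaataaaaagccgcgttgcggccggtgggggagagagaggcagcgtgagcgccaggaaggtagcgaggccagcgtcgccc
GATA2 downstream: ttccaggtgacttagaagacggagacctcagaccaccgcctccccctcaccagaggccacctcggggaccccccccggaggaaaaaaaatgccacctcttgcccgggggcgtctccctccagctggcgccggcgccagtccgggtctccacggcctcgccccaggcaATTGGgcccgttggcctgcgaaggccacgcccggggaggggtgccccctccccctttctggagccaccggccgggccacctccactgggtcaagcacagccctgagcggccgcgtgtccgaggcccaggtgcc
GFI1B downstream: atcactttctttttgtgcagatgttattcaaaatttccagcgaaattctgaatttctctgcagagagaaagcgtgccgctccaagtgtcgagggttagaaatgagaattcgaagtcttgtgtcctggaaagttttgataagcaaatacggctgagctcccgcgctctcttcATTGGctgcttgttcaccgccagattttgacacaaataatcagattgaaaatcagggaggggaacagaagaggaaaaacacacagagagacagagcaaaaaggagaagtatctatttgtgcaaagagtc
LDB1 downstream: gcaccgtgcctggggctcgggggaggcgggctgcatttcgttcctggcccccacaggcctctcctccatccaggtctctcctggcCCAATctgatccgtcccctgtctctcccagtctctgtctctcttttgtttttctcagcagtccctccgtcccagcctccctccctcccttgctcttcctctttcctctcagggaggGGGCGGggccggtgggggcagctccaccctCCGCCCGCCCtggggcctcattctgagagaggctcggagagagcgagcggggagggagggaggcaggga
MITF upstream: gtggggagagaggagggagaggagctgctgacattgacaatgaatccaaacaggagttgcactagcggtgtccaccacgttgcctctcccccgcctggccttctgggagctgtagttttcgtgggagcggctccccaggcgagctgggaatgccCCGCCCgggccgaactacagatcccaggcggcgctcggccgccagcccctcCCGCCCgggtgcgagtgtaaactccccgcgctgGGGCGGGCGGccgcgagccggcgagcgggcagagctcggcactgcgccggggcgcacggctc
MPP1 upstream: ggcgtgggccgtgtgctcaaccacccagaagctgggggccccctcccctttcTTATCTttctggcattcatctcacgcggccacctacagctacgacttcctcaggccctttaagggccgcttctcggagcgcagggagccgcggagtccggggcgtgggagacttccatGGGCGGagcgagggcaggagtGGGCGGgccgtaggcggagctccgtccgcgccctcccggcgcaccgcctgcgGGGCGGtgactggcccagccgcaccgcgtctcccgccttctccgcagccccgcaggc
The EPB41 windows held 4 GC box matches upstream and 2 downstream, with 1 CCAAT match upstream and 2 downstream. The GFI1B window had a GC content of 42.3%, the lowest of the 8, and held no GC box match, while the GATA2 upstream window reached 72.3%. A GATA match was found in the MPP1 window alone of these 8. A match describes letters in the window and not a bound site, and a missing one says nothing of the factor.

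The distance between a gene's outermost start peaks ranged from 5.01 to 1117.6 kb, with a median of 20.5 kb and a middle range of 10.2 to 53.3 kb. It was 5 to 10 kb in 166 genes, 10 to 20 kb in 173, 20 to 50 kb in 168, 50 to 100 kb in 95 and 100 kb or more in 84. The genes nearest the limit from inside were LSM5 at 5010 bp and ZBTB4 at 5030 bp, and those nearest from outside were HIVEP1 at 4970 bp and CPEB2 at 4960 bp. The 686 genes held 2349 start peaks in all: 169 genes had exactly 2, 224 had 3, and 1 had 9. Many of these peaks lie side by side, and only 46 genes (6.71%) had 3 or more start peaks each at least 5 kb from the others. The genes were long, with a median of 69.3 kb against 32.9 kb in the other 10135 genes with a start peak, and had a median of 12 annotated transcripts against 7; both properties make it easier to meet the rule.

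**Figure D1:**
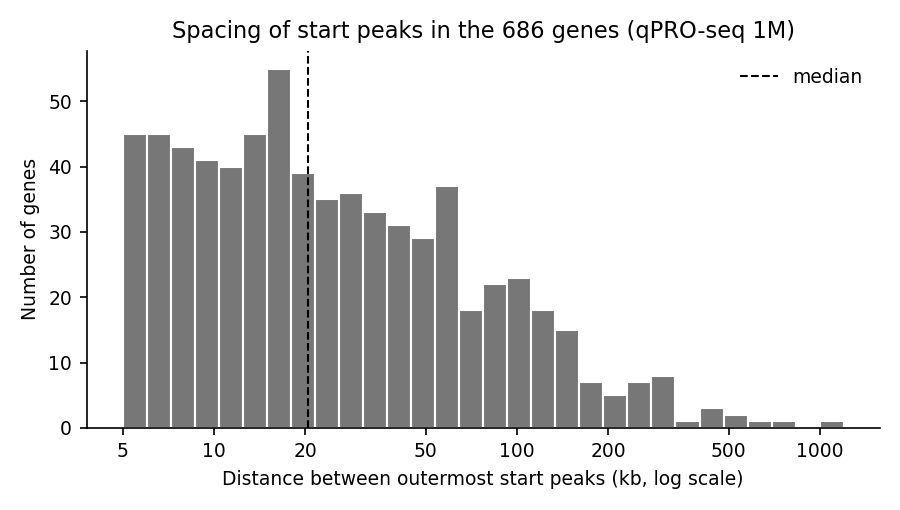
Number of genes (vertical axis) by the distance between the centres of the outermost start peaks in the qPRO-seq 1M list (horizontal axis, kb, log scale). The dashed line is the median, 20.5 kb, and the right tail reaches 1117.6 kb in RUNX1.

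The widest spacing was in RUNX1, a transcription factor needed for definitive blood formation, at 1117600 bp. Its outermost upstream peak scored low (percentile 5.35 of the qPRO-seq 1M scores) and lay at the start of a single annotated transcript, beside the non-coding gene LINC01436. RUNX1 had 8 start peaks, of which 6 lay within 3 kb of each other at the downstream end. The peak 955680 bp downstream of the first stood at percentile 46.2 and was overlapped in both other lists. Of its outermost pair, the upstream peak was overlapped in PRO-seq 1M only and the downstream peak (26.0) in neither list. Next came ZFPM2, a cofactor of GATA factors, at 729390 bp, EXOC4, a subunit of the exocyst, at 642420 bp, SMYD3, a lysine methyltransferase, at 519210 bp, and EGLN3, an oxygen-sensing prolyl hydroxylase, at 511490 bp. The outermost pair of ZFPM2 was found whole in PRO-seq 1M, and that of EGLN3 in both other lists. EGLN3's outermost downstream peak was only 250 bp wide at percentile 28.5, beside a stronger start peak at 97.5. The peaks overlapping it, at 95.4 in PRO-seq 1M and 78.2 in qPRO-seq 250k, were centred nearer to that stronger neighbour. The downstream peak of EXOC4 was overlapped in neither list. In SMYD3 the outermost downstream peak (40.5) was overlapped in neither list, but the peaks 518470 and 518720 bp from the first (76.6 and 81.5), at the same transcript starts, were overlapped in both. EGLN3's upstream peak coincided with a start of SPTSSA.

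Upstream and downstream promoters differed in their surroundings. At the upstream peak, 301 genes (43.9%) had a start of another protein-coding gene within 500 bp, against 71 (10.3%) at the downstream peak, a difference of 33.5 percentage points (29.4 to 37.5). The neighbour's start was on the opposite strand in 272 of the upstream and 54 of the downstream cases. Head-to-head pairs at a bidirectional promoter are of this kind, but the order of the starts was not examined. A peak carries no strand, so a peak near starts of both genes cannot be assigned to either gene alone. Centres of downstream peaks lay in an intron of the gene in 457 genes (66.6%), in an exon in 226 and outside the gene in 3. A principal transcript (the APPRIS choice of the main protein isoform) started at the upstream peak only in 224 genes, at the downstream peak only in 255, at both in 86 and at neither in 121. Transcripts annotated as protein-coding used a common start codon at both ends in 244 genes (35.6%) and only different ones in 179 (26.1%). In the rest, no transcript of that type with an annotated start codon began at one end (93 upstream, 153 downstream) or at either (17). Peaks at no annotated start, of the kind dREG also calls at enhancers, lay between the outermost pair in 313 genes. Summed over genes there were 645, where a peak lying between the pairs of several genes is counted for each.

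In the list that chose them, upstream peaks scored somewhat higher. The median percentile was 65.0 upstream (middle range 40.6 to 85.2) and 56.7 downstream (30.0 to 79.3), the median dREG score 0.672 against 0.596 and the median width 500 against 460 bp. The upstream peak scored higher in 398 genes (58.0%) and the downstream peak in 288. Scores come from the authors' lists and were ranked only within a list.

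In the PRO-seq 1M list, 588 of 686 upstream peaks (85.7%, 82.9 to 88.1) and 457 downstream peaks (66.6%, 63.0 to 70.0) were overlapped by a peak, against 83.1% of all start peaks of protein-coding genes. Both ends were found in 395 genes (57.6%), the upstream end only in 193, the downstream end only in 62 and neither in 36. The difference between the ends was 19.1 percentage points (14.7 to 23.4). Upstream peaks stood near the share of all start peaks and downstream peaks below it. Outermost pairs of 34 genes share a peak with another of the 686, so the genes are not fully independent.

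In the qPRO-seq 250k list, 446 upstream peaks (65.0%, 61.4 to 68.5) and 332 downstream peaks (48.4%, 44.7 to 52.1) were overlapped, against 62.9% of all start peaks. Both ends were found in 222 genes (32.4%), the upstream end only in 224, the downstream end only in 110 and neither in 130. The difference was 16.6 percentage points (11.5 to 21.6). In the 169 genes with exactly 2 start peaks, where no other start peak lies beside either end, it was 7.69 points (-2.83 to 17.98), an interval that includes 0, against 18.3 points (8.95 to 27.3) in PRO-seq 1M. Across the 3 lists, 200 genes (29.2%) kept both outermost promoters. The upstream peak was in all 3 lists in 429 genes and in qPRO-seq 1M alone in 81, while the downstream peak was in all 3 in 305 and in qPRO-seq 1M alone in 202.

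**Figure D2:**
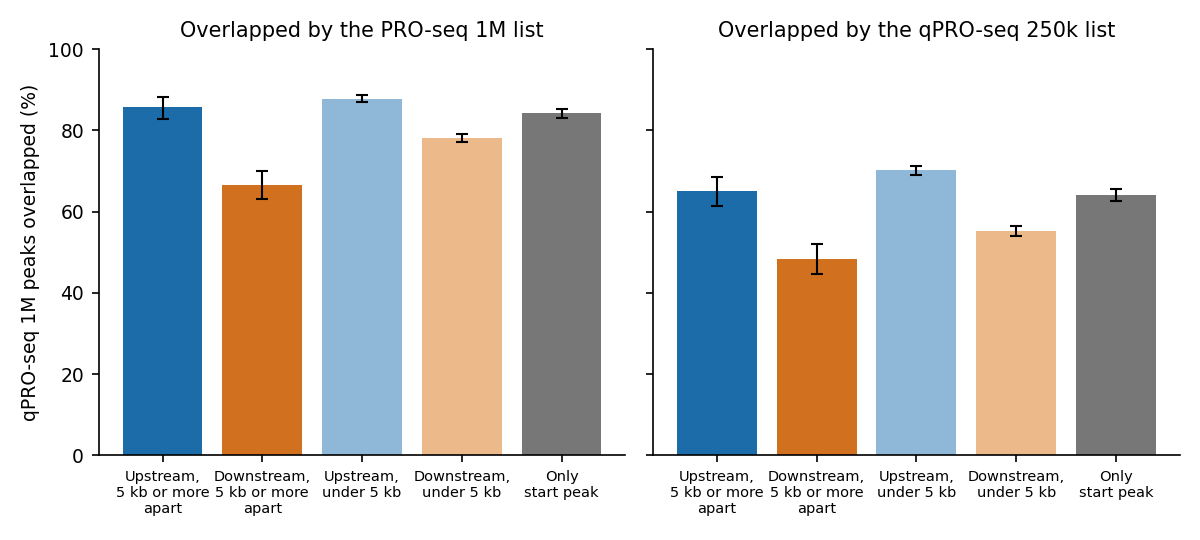
Share of qPRO-seq 1M peaks overlapped by at least 1 bp in PRO-seq 1M (left) and qPRO-seq 250k (right) for the outermost pair of the 686 genes, the outermost pair of 5982 genes with start peaks under 5 kb apart, and the only start peak of 4153 genes. Bars are percentages and error bars 95% Wilson intervals; downstream bars are lower than upstream bars in both panels (66.6% against 85.7% on the left for the 686 genes).

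Part of the gap went with the score. Within score deciles of all start peaks, the difference fell to 14.1 points (10.2 to 18.1) in PRO-seq 1M and to 9.36 points (5.13 to 13.6) in qPRO-seq 250k. In the lowest decile, 28 of 54 upstream peaks (51.9%) and 25 of 92 downstream peaks (27.2%) were found in PRO-seq 1M, against 50.7% of all start peaks there. In the highest decile the shares were 92 of 92 and 72 of 73. In the 398 genes whose upstream peak had the higher score, the gap was 35.9 points (30.4 to 41.2) in PRO-seq 1M and 42.0 points (35.9 to 47.5) in qPRO-seq 250k. In the 288 genes whose downstream peak had the higher score, the order in qPRO-seq 250k turned, with 46.2% of upstream and 64.6% of downstream peaks overlapped (difference -18.4 points, -25.5 to -11.0); in PRO-seq 1M the difference was -4.17 points (-10.5 to 2.18), an interval that includes 0. Where both peaks were above the list's median score (268 genes), the difference was 8.58 points (3.77 to 13.6) and 9.70 points (2.65 to 16.6).

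**Figure D3:**
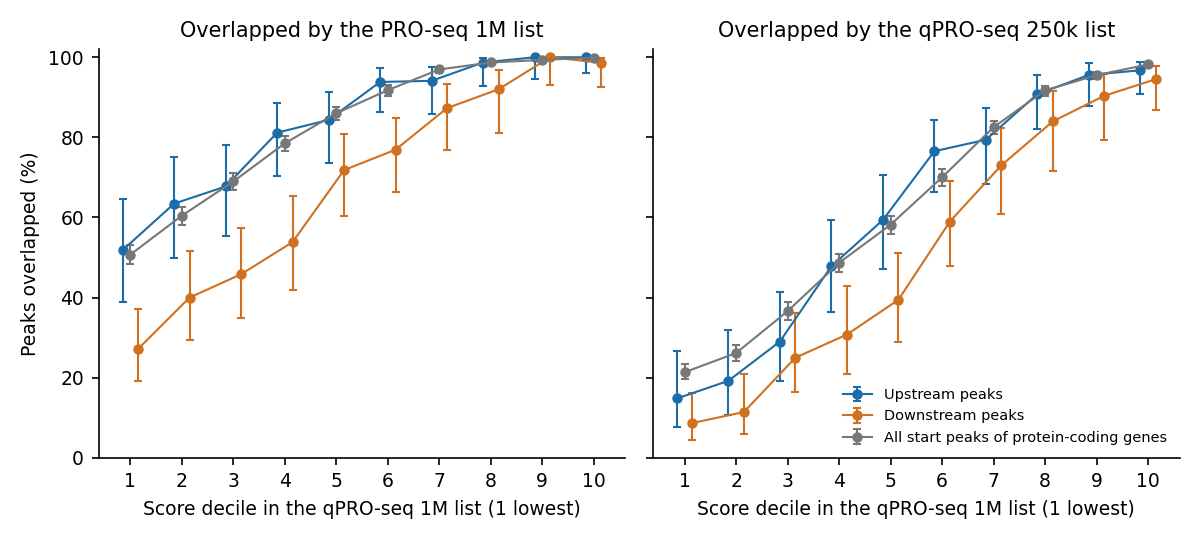
Share of peaks overlapped (vertical axis, %) in PRO-seq 1M (left) and qPRO-seq 250k (right) by decile of the qPRO-seq 1M score (horizontal axis, 1 lowest) for upstream peaks, downstream peaks and all start peaks of protein-coding genes, with 95% Wilson intervals. Shares climb with the score in all 3 series, and downstream points lie under upstream points in deciles 1 to 8 of both panels, for example 27.2% against 51.9% in the lowest decile on the left.

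Pairs of start peaks less than 5 kb apart, in 5982 genes, were also found less often at the downstream end, 87.9% upstream against 78.2% in PRO-seq 1M (difference 9.68 points, 8.34 to 11.0) and 70.2% against 55.2% in qPRO-seq 250k (14.9 points, 13.2 to 16.6). The gap in the widely spaced genes was 9.42 points larger (4.83 to 13.9) in PRO-seq 1M. In qPRO-seq 250k it was 1.69 points larger (-3.71 to 6.97), so a difference from close pairs was not detectable there. Against the 4153 genes with a single start peak (84.2% and 64.2% found), downstream peaks of the same score decile were found less often, with differences of -8.68 points (-11.5 to -5.85) in PRO-seq 1M and -4.14 points (-7.33 to -0.950) in qPRO-seq 250k. Upstream peaks of the same score decile were found more often, by 3.29 points (0.852 to 5.72) and 4.54 points (1.58 to 7.51).

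Among the classes by principal transcript, the gap was widest in both lists where that transcript started upstream only. Among those 224 genes, 88.4% of upstream and 46.9% of downstream peaks were found in PRO-seq 1M, a difference of 41.5 points (33.2 to 49.0), and 65.6% and 33.0% in qPRO-seq 250k, a difference of 32.6 points (23.5 to 40.9). Among the 255 genes with the principal start downstream only, the shares were 86.7% and 82.7% in PRO-seq 1M (3.92 points, -2.10 to 9.95) and 67.5% and 61.6% in qPRO-seq 250k (5.88 points, -2.37 to 14.0). In these genes the downstream share was not above the upstream share in either list, and within score deciles the gap was 3.49 points (-2.53 to 9.51) and 7.07 points (0.0680 to 14.1). The gap differed between the 2 sets of genes by 37.6 points (27.3 to 47.2) and 26.7 points (14.5 to 38.4). The median percentile of the downstream peak was 44.0 in the first set and 67.9 in the second; within score deciles the gap in the first set was 33.5 points (25.7 to 41.3) and 18.6 points (10.7 to 26.5). With principal starts at both ends the gap was 4.65 points (-6.82 to 16.0) and 3.49 points (-10.4 to 17.2), and with none at either it was 19.8 points (8.58 to 30.4) and 19.0 points (6.93 to 30.3).

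**Figure D4:**
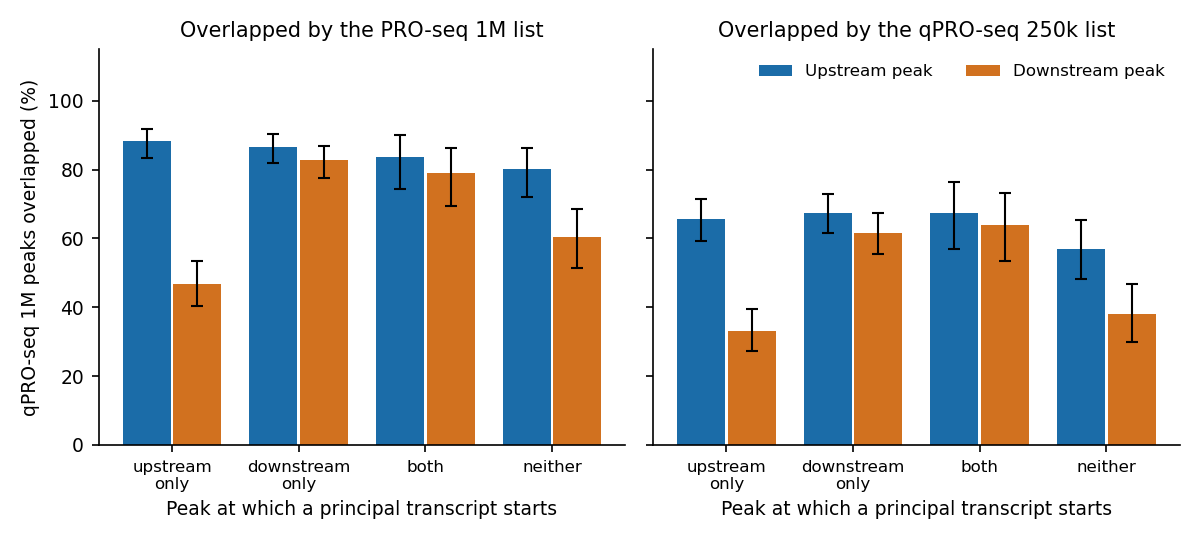
Share of the outermost peaks overlapped (vertical axis, %) in PRO-seq 1M (left) and qPRO-seq 250k (right) by the end at which a principal transcript starts (224 genes upstream only, 255 downstream only, 86 both, 121 neither), with 95% Wilson intervals. Downstream peaks of the first set are the lowest bars, 46.9% and 33.0%.

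Spacing, start codons and neighbours gave smaller contrasts. In PRO-seq 1M the gap was 16.3 points at 5 to 10 kb and 34.5 points at 100 kb or more, and these differed by 18.3 points (3.36 to 32.5); the 3 classes between ranged from 12.7 to 23.2 points with no steady order. In qPRO-seq 250k the corresponding difference was 13.5 points (-2.65 to 28.8). There the gaps were 13.9 points at 5 to 10 kb, 6.94 points (-3.99 to 17.6) at 10 to 20 kb, 25.6 points at 20 to 50 kb, 13.7 points (-0.901 to 27.5) at 50 to 100 kb and 27.4 points at 100 kb or more, and the intervals of the 10 to 20 kb and 50 to 100 kb classes included 0. Genes whose ends use different start codons had a gap of 21.8 points in PRO-seq 1M against 11.9 points where a start codon was common, but the interval of the difference of 9.90 points (-0.771 to 20.4) included 0. In qPRO-seq 250k the gaps were 19.6 points (9.51 to 29.05) and 7.79 points (-0.903 to 16.3), with a difference of 11.8 points (-1.41 to 24.6). Upstream peaks with a neighbouring protein-coding start were found more often than those without, by 9.47 points (4.29 to 14.5) and 16.2 points (9.04 to 23.0). Within score deciles this was 4.87 points (-0.291 to 10.0) and 6.54 points (0.392 to 12.7). Without any gene whose outermost peaks touch a start of another gene, 274 genes remained, and the gap between ends was 25.2 points (17.4 to 32.6) in PRO-seq 1M and 22.3 points (13.5 to 30.5) in qPRO-seq 250k.

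Where both ends were found, their rank order tended to hold. The promoter that scored higher in qPRO-seq 1M also scored higher in PRO-seq 1M in 275 of 395 genes (69.6%, 64.9 to 73.9) and in qPRO-seq 250k in 162 of 222 (73.0%, 66.8 to 78.4). With percentiles more than 25 points apart the counts were 147 of 185 (79.5%) and 62 of 77 (80.5%). Among the genes with both ends found, median centre distances were 50 bp upstream and 40 bp downstream in PRO-seq 1M. They were 40 bp at both ends in qPRO-seq 250k. These peaks were required to overlap, which itself limits how far apart their centres can lie. Some peaks without an overlap had another peak close by: within 500 bp lay a PRO-seq 1M peak for 36 of 98 such upstream and 51 of 229 such downstream peaks, and a qPRO-seq 250k peak for 82 of 240 and 66 of 354.

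Promoter sequence also differed between the ends. RefSeq windows were matched to 324 upstream and 347 downstream peaks of the 686 genes. PRO-seq 1M overlapped 292 of these upstream and 271 of these downstream peaks, and qPRO-seq 250k overlapped 216 and 204. Over all 686 genes the counts were 588 and 457 in PRO-seq 1M, and 446 and 332 in qPRO-seq 250k. Matched peaks were thus found more often than all outermost peaks, mostly downstream, and the sequence results describe them alone. CpG-rich windows were defined by a CpG observed to expected ratio of at least 0.6 and a GC content of at least 50%. They made up 85.2% (80.9 to 88.6) of the upstream and 71.8% (66.8 to 76.2) of the downstream windows. The share was 88.1% at 2838 genes with a single start peak and 46.9% over all 35116 windows of the table. In the 146 genes with a window at both ends it was 81.5% upstream and 61.6% downstream, a difference of 19.9 points (8.95 to 30.2); 70 had both ends CpG-rich, 49 the upstream end only, 20 the downstream end only and 7 neither. Of 6 motifs compared in these 146 genes, with no adjustment for their number, CCAAT was in 28.1% of upstream and 41.8% of downstream windows (difference -13.7 points, -24.0 to -2.99) and the GATA motif in 2.74% and 9.59% (-6.85 points, -13.0 to -1.12). For the GC box, for the TATA box as TATAAA, for an ETS factor motif as CCGGAAG and for an AP-1 motif as TGANTCA the interval of the difference included 0. All motifs were searched on both strands. Of all windows of the table, the CCAAT box was in 34.6%, the GATA motif in 10.3% and the GC box in 45.0%. The TATA box was in 11.5%, the ETS motif in 10.3% and the AP-1 motif in 7.71%. At the 2838 genes with a single start peak the shares were 41.0%, 4.26%, 77.3%, 4.16%, 23.5% and 4.02% in the same order.

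Among peaks with a matched window, those at CpG-rich promoters were found again more often than others. In PRO-seq 1M, 92.4% of CpG-rich and 77.1% of other upstream windows belonged to an overlapped peak, and 86.3% and 57.1% of downstream windows, a downstream difference of 29.2 points (18.7 to 39.8). In qPRO-seq 250k the shares were 70.7% and 43.8% upstream, and 66.3% and 39.8% downstream, a downstream difference of 26.5 points (14.9 to 37.2). Median score percentiles moved with this, 68.4 in CpG-rich and 51.0 in other downstream windows. Within score quintiles the downstream difference was 19.9 points (10.2 to 29.5) and 12.6 points (2.85 to 22.4), and the upstream one 11.3 points (-0.824 to 23.4) and 17.6 points (4.73 to 30.5).

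Genes known for alternative promoters and for roles in blood gave concrete cases. The lists used were compiled with earlier results of these data known, so their shares are descriptions. Of 41 listed alternative-promoter genes with a start peak, 10 (24.4%) were among the 686, against 6.34% of all protein-coding genes with a start peak; they were RUNX1, GATA2, GFI1B, MITF, EPB41, MACF1, DST, PLEC, MBNL1 and BRCA1. Of 31 blood regulators 6 (19.4%) qualified (among them GATA2, GFI1B, RUNX1, LDB1 and SOX6), of 24 red cell genes 2 (8.33%, EPB41 and MPP1), and of 8 heme synthesis genes 0. Among cytolinker and membrane skeleton genes 6 of 26 (23.1%) qualified (MACF1, DST, PLEC, ANK3, EPB41 and UTRN), among chromatin genes 8 of 54 (14.8%), among ZNF zinc finger genes 25 of 356 (7.02%) and among ribosomal protein genes 4 of 73 (5.48%). The shares of the red cell, zinc finger and ribosomal protein lists lie near the 6.34% of all such genes.

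GATA2, a zinc finger factor of blood stem and progenitor cells, had start peaks 5280 bp apart, at chr3:128493011-128493500 upstream and chr3:128487571-128488200 downstream. The upstream peak stood at percentile 54.1 in qPRO-seq 1M and 58.4 in PRO-seq 1M and had no overlap in qPRO-seq 250k. The downstream peak stood at 65.5, 60.9 and 8.15 in qPRO-seq 1M, PRO-seq 1M and qPRO-seq 250k. Both promoters were thus present with 1000000 cells under either protocol, and the downstream one alone in the 250k list. The downstream window printed above lies just outside this peak.

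EPB41, the gene of protein 4.1R, had its ends 27620 bp apart. The outermost upstream peak was 240 bp wide at percentile 18.7, beside a peak 340 bp downstream at percentile 86.4. The overlapping peaks, centred near that stronger neighbour, stood at 94.0 in PRO-seq 1M and 89.8 in qPRO-seq 250k. The upstream window printed above lies outside the outermost peak and within the stronger neighbour. The downstream peak, at chr1:28914281-28914570, stood at 21.1 and had no overlap in either other list. Both ends lead to a common start codon in the annotation. MPP1, which encodes the red cell membrane protein p55, had peaks 6260 bp apart that were found in all 3 lists: the upstream peak stood at 90.4, 88.0 and 89.5 and the downstream peak at 83.7, 67.8 and 59.9 in qPRO-seq 1M, PRO-seq 1M and qPRO-seq 250k. At its downstream peak the annotated transcript is not of the protein-coding type.

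GFI1B, a repressor needed for red cell and platelet formation, kept its downstream end in all 3 lists. Its peaks spanned 35220 bp, and the outermost upstream peak, at percentile 64.4, had no overlap in the other lists, though a second upstream peak 1380 bp further on (74.8) had one in both. The downstream peak, at chr9:132978181-132978900 in an exon, stood at 89.6, 62.5 and 98.0 in qPRO-seq 1M, PRO-seq 1M and qPRO-seq 250k. LDB1, a partner of GATA1 and TAL1 that bridges enhancers and promoters, had peaks 5460 bp apart with different start codons. Its upstream peak stood at 86.4, 86.6 and 57.8 in that order of lists, and its downstream peak, where the principal transcript starts, at 52.2 and 41.6 in the first 2 and without overlap in qPRO-seq 250k.

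MITF, a factor of melanocytes and mast cells with several first exons, had peaks 126770 bp apart. The upstream peak stood at 82.9, 74.2 and 57.5 in the same order, and the downstream peak at 57.9 had no overlap in the other lists, the nearest PRO-seq 1M peak lying 27981 bp away. In MBNL1, an RNA splicing factor, the upstream peak stood at 85.3, 45.6 and 69.9. Its peak 55580 bp downstream, where a principal transcript starts, stood at 5.73 and was in no other list. An internal peak 25370 bp from the first, also at a principal start, was in all 3, at 69.7, 79.8 and 67.5.

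The cytolinkers MACF1 and DST, which join actin to microtubules or intermediate filaments, had peaks 303280 and 463430 bp apart. MACF1's upstream peak stood at 72.4, 85.6 and 39.8 in qPRO-seq 1M, PRO-seq 1M and qPRO-seq 250k. Its downstream peak stood at 66.3, 60.0 and 59.7. Both MACF1 ends, which have different start codons, were therefore overlapped by a peak in all 3 lists. In qPRO-seq 250k itself, however, MACF1 did not meet the rule of start peaks at least 5 kb apart. DST's upstream peak, near a start of BEND6, stood at 64.4, 39.5 and 62.9. The 62.9 in qPRO-seq 250k belongs to an overlapping peak centred 0.45 kb away, nearer to DST's second start peak at 0.56 kb. DST's outermost downstream peak, at 1.03, was in qPRO-seq 1M alone. DST's internal start peak 412390 bp from the first was strong in every list, at 98.2, 92.9 and 77.1. BRCA1, a DNA repair gene, had peaks 45120 bp apart in all 3 lists. The upstream peak, at 62.9, 42.1 and 26.6, coincides with a start of NBR1, and the downstream peak, at 88.8, 84.5 and 77.8, with a start of NBR2. This upstream peak was 90 bp wide, and another start peak of the same transcript, 310 bp from it, stood at 86.4. Near that position, peaks stood at 41.7 in PRO-seq 1M and 50.1 in qPRO-seq 250k.

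**Figure D5:**
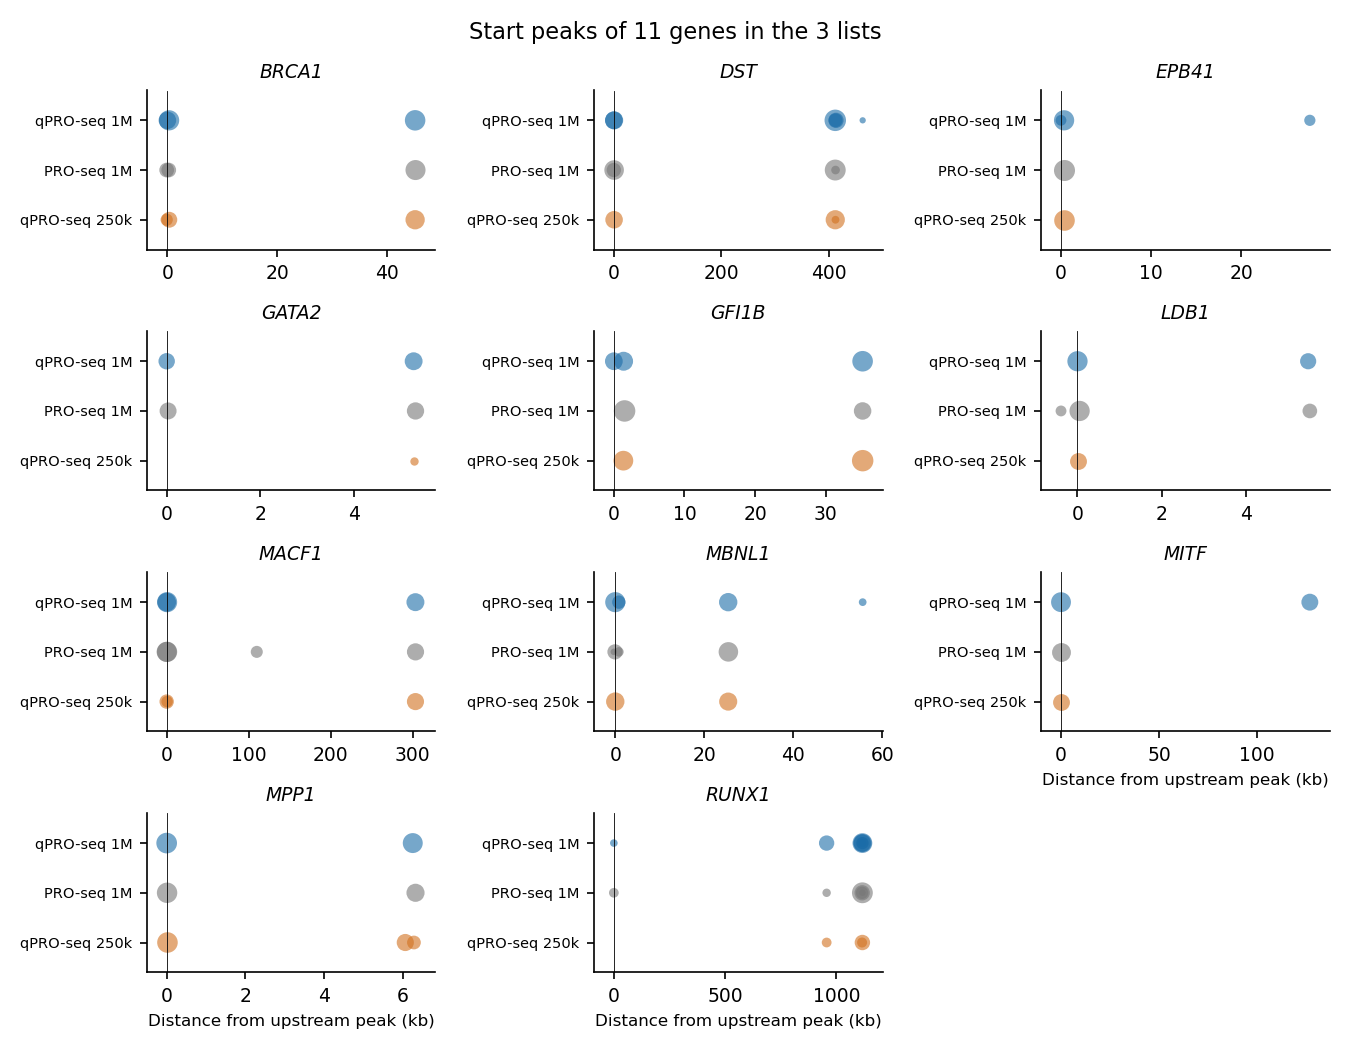
Start peaks of 11 genes by distance from the outermost upstream peak of the qPRO-seq 1M list (horizontal axis, kb, in the direction of transcription, a scale for each gene) in the 3 lists (rows; in the other 2 lists, peaks at a start of the gene or overlapping its qPRO-seq 1M start peaks). Point area grows with the score percentile within its list; EPB41 and MITF have no downstream point in the PRO-seq 1M and qPRO-seq 250k rows, while MPP1 has both ends in all rows.

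The strongest pairs, by the lower percentile of the ends, were in PNPLA8 (97.7 upstream and 99.4 downstream), PDXK (96.6 and 99.99), APTX (99.0 and 95.5), SLC25A12 (98.9 and 95.3) and ACLY (95.2 and 98.8). PDXK makes the active form of vitamin B6, the cofactor of the first step of heme synthesis. Its internal promoter, at chr21:43728211-43729010, stood at 99.99 in PRO-seq 1M and 99.97 in qPRO-seq 250k as well, and its upstream promoter at 93.3 and 87.8. The upstream peaks of PNPLA8, a phospholipase, APTX, a DNA repair enzyme, SLC25A12, a mitochondrial carrier, and ACLY, which makes cytosolic acetyl-CoA, all lay at starts of other genes. Every end of these 5 genes was in both other lists, except the upstream peak of ACLY, which had no overlap in qPRO-seq 250k.

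Some absent peaks had high scores. ERI1, a 3′ exonuclease, had an internal peak 9250 bp from its upstream one at percentile 98.3, without an overlap in either other list; the nearest PRO-seq 1M peak lay 8631 bp away. The downstream peaks of ZNF721 (85.0) and ZFAND6 (78.5) were absent from both lists in the same way. The reverse was seen in HMGN5, a nucleosome-binding protein, whose upstream peak at 81.4 was absent from both while the downstream peak 80210 bp away, at 71.6, was present in both, and in ZNF19 (upstream 72.9) and EVI5 (67.0). These 6 were named for the highest score of the absent peak and are not typical.

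Only 4 genes had 4 start peaks each at least 5 kb from the others, among them ERCC1, a DNA excision repair subunit, LMNA, the gene of lamins A and C, and CHD9, a chromatin remodeller. CHD9's peaks at 0, 44730 and 75460 bp from the first stood at 88.1, 71.3 and 86.6 and were all overlapped in both other lists, while the last, at 153440 bp and percentile 25.7, was in neither. In LMNA the peaks 23990 and 32070 bp from the first (56.4 and 64.2) were overlapped in both lists. LMNA's first 2 peaks (47.1 and 18.8) were overlapped in PRO-seq 1M only, and those at 23260 and 40980 bp (9.03 and 12.9) in neither. ERCC1's downstream peaks, 50480 bp and more from the first, were overlapped in both lists, and its 2 middle peaks, at percentiles 23.6 and 12.1, in neither.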

How the data were processed

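Nascent RNA was measured by PRO-seq in K562 cells, in 3 groups of 2 replicates. The submitters' processing notes name fastp 0.20.0, Bowtie2 2.3.5.1, UMI-tools and deepTools 3.1.3 and the build hg38 (GRCh38), without their order; the version of dREG and how replicates were combined are not given in the sources used here. The authors deposited 1 dREG peak list per group, with positions, a centre, a dREG score per peak and a p-value per peak; the largest deposited p-value was below 0.05. Scores were used only as ranks (percentiles) within a list, and p-values only as a filter in an alternative. The depth per sample is unknown, so precision is given only by the number of peaks.

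Peaks were matched to GENCODE release 29 starts within 500 bp, on the same build. A peak counted as found in another list when the 2 overlapped by at least 1 bp. The percentile given for that list is that of the top-scored overlapping peak. Intervals are 95% Wilson intervals for shares and Newcombe intervals for differences (paired within genes, unpaired between sets). Differences within score classes were combined with weights. Their intervals are normal ones that treat the peaks as independent and leave out the pairing within genes. There were 10 classes by the scores of all start peaks, and 5 by the scores of the outermost peaks for CpG-rich against other windows. No p-values were computed, since groups have no replicate lists. The scripts (Python 3.11.15, numpy 2.4.6, matplotlib 3.10.9) were tested on simulated data. No genome sequence was used here, so RefSeq promoter windows replaced windows around peak centres. The genes and lists were chosen with earlier results of these data known. Named genes were those on the alternative-promoter, blood regulator, red cell and heme lists (11 in full), the 5 widest, the 5 with the highest lower percentile, 3 for each kind of absent end, 3 of the 4 with most separate promoters and the 4 nearest the limit. Alternatives changed the start window, transcripts, spacing, p-value, overlap rule, list length and shared peaks. Some genes and lists that these rules cover are not reported here.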

Additional observations from a re-analysis of the deposited data

How the results depend on the processing

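The alternative settings gave 51 values over all results. Of these, 24 stayed within the counting interval or within 1.5 times the count, and 27 moved beyond it. No difference between the ends changed direction. The number of genes was 274 without peaks at a start of another gene and 347 at a spacing of at least 20 kb. The upstream minus downstream difference in PRO-seq 1M was 25.2 percentage points without shared peaks, 23.6 at 20 kb, 14.5 with peaks of p at most 0.01, 9.62 when centres had to lie within 100 bp and 14.1 within score deciles. In qPRO-seq 250k it was 22.3, 22.8, 11.2 and 9.36 points for the same settings other than the p-value. The share of genes with both ends in PRO-seq 1M was 51.7% with a start window of 1000 bp, 61.5% with 250 bp, 62.1% with protein-coding transcripts only, 44.9% without shared peaks, 64.3% with the top-scored start peak within 1 kb of the outermost, 44.0% with an overlap of 50% of both peaks, 38.3% with centres within 100 bp, 37.8% with the PRO-seq 1M list shortened to the length of the 250k list, and 67.8% when a peak within 500 bp counted, an alternative chosen after seeing the data. In qPRO-seq 250k it was 25.8% at 1000 bp, 37.2% at 250 bp, 17.5% without shared peaks, 42.0% with the top-scored peak, 23.2% with the 50% overlap, 21.3% with centres within 100 bp and 45.0% with a peak within 500 bp. Requiring an overlap of 50% of both peaks or shortening the PRO-seq 1M list can only lower these shares. Counting a peak within 500 bp can only raise them. Causes of the other changes were not tested. No paired analysis was possible because each group has 1 list for both replicates, and for the same reason no replicate could be left out.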

Other observations

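The same rule applied to the other lists found some genes that were not among the 686. In PRO-seq 1M it found 549 genes, of which 479 were shared and 70 were not, and in qPRO-seq 250k it found 335, of which 325 were shared and 10 were not. The shared genes are 69.8% of the 686 in the first case and 47.4% in the second.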
